A study of Homo sapiens with 4 samples.

Results

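The 9 genes of the LIN28 and let-7 axis followed here in RNA-seq libraries of NT2 cells were LIN28A, LIN28B, HMGA2, IGF2BP1, IGF2BP2, IGF2BP3, TRIM71, MYCN and DIS3L2. They were chosen by gene symbol, and each of the 9 symbols matched 1 of the 62696 genes in the count tables. NT2, also called NTERA-2, is a human embryonal carcinoma line. The groups were 1 library of cells with an empty vector, whose genotype is given as wild type and which is called the control library below, and 3 libraries labelled HYDIN2 knockdown, numbered as replicates 1 to 3. Both groups were the same line grown in the same medium. The labels do not say how the knockdown was made or whether the replicates were separate cultures, so the spread between them may be technical. With 1 control library there is no replicate check on that side, and every difference below is from that single library.

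LIN28A and LIN28B are RNA-binding proteins of embryonic and germ cells that bind the precursors of let-7 microRNAs and block their maturation. With LIN28 bound, terminal uridylyltransferases add a uridine tail to the precursor, and the exonuclease DIS3L2 degrades the tailed RNA. Mature let-7 in turn represses messages with matching sites in their 3′ UTRs, among them LIN28A and LIN28B themselves and the oncofetal genes HMGA2, IGF2BP1 to IGF2BP3, TRIM71 and MYCN, so the axis is known as a double-negative loop that keeps let-7 low in pluripotent cells.

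The let-7 family is shown first, because its shared seed is what the target sites below match. RefSeq (GRCh38.p14) holds 9 distinct mature 5p sequences of the family from 12 loci. They are printed 5′ to 3′ with the seed, bases 2 to 8, in capitals.
let-7a: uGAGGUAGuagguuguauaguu
let-7b: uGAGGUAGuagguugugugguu
let-7c: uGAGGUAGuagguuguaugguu
let-7d: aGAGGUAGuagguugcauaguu
let-7e: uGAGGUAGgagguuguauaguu
let-7f: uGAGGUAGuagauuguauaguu
let-7g: uGAGGUAGuaguuuguacaguu
let-7i: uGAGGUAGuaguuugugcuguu
miR-98: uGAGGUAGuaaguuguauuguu
All 9 have the same seed, and the others differ from let-7a at 1 to 4 positions outside it. Counted from 1 at the 5′ end, with the base of let-7a first, let-7c differs by A19G alone, let-7f by G12A alone and let-7e by U9G alone, while let-7i differs by G12U, A17G, U18C and A19U.

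A target site is the complement of that seed. The motif searched was CTACCTCA, which pairs with bases 2 to 8 and has an A opposite base 1, on the transcript strand of GENCODE 29 3′ UTRs (GRCh38). The 7-base form CTACCTC without the A was also counted. Of 13208 genes with a UTR that passed the level filter described below, 525 (3.98%) held at least 1 match of 8 bases, and 1345 (10.2%) held at least 1 match of the 7-base form, 8-base matches included. In the axis, 7 of 9 genes held 13 matches of 8 bases, and 8 further 7-base matches lay in LIN28B, HMGA2, IGF2BP1 and TRIM71. MYCN and DIS3L2 held neither form. Another form, TACCTCA, which pairs with bases 2 to 7 and keeps the A, was counted outside the 8-base matches and was held by 1063 of the 13208 genes (8.05%). MYCN held 2 of these, HMGA2 3, TRIM71 2, and LIN28B, IGF2BP1 and IGF2BP2 1 each, while LIN28A, IGF2BP3 and DIS3L2 held 0. All 13 matches of 8 bases are shown, because they are what the 7 genes share and because TRIM71, IGF2BP1 and LIN28B repeat them. Each line gives the transcript strand 5′ to 3′ with the match in capitals.
LIN28A, chr1:26427352-26427381, plus strand: agcctattgaaCTACCTCAtttttgccaat
LIN28B, chr6:105078816-105078845, plus strand: ggttgcaaagtCTACCTCAtgcaagtatag
LIN28B, chr6:105081425-105081454, plus strand: acagcaaaaggCTACCTCAtagttgataca
HMGA2, chr12:65963302-65963331, plus strand: acgttcgatttCTACCTCAgcagcagttgg
IGF2BP1, chr17:49051065-49051094, plus strand: tgcgaagtaaaCTACCTCAaggtatgaagt
IGF2BP1, chr17:49053702-49053731, plus strand: agtgctagtaaCTACCTCAcagagccccag
IGF2BP1, chr17:49054356-49054385, plus strand: aaatggattaaCTACCTCAatccttacagt
IGF2BP2, chr3:185644209-185644238, minus strand: cacagaagaagCTACCTCAggtgtttttac
IGF2BP3, chr7:23311784-23311813, minus strand: tttttactcaaCTACCTCAggtattcagta
TRIM71, chr3:32891972-32892001, plus strand: ttgcttaagtcCTACCTCAtctttattttt
TRIM71, chr3:32892052-32892081, plus strand: ataatttctatCTACCTCAtaaatctttac
TRIM71, chr3:32895809-32895838, plus strand: ttgctgagtttCTACCTCActtgtggcaag
TRIM71, chr3:32895832-32895861, plus strand: tggcaagtcatCTACCTCAtgttagcatct
TRIM71 held 4 matches in a UTR of 6015 nt, at 172, 252, 4009 and 4032 nt after the stop codon. IGF2BP1 held 3 in 6206 nt, a number reached by 7 of the 13208 genes, itself and TRIM71 included, and LIN28B held 2 in 4549 nt, reached by 24 genes. LIN28A, HMGA2, IGF2BP2 and IGF2BP3 held 1 each. The HMGA2 match starts 21 nt after the stop codon of the APPRIS principal transcript, whose UTR has 3003 nt; the longest HMGA2 transcript ends elsewhere, with a UTR of 7421 nt and 0 matches. A match of letters is a description and no evidence that let-7 binds there in these cells.

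**Figure D1:**
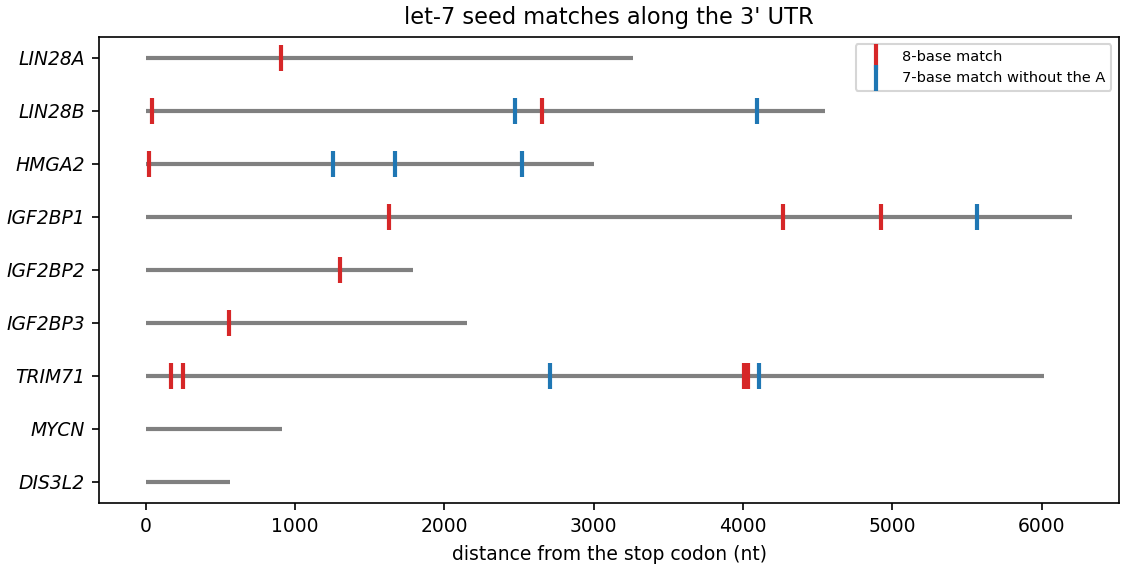
Matches to the let-7 seed along the 3′ UTR of each gene, drawn to scale as the distance from the stop codon in nt. Red ticks are 8-base matches and blue ticks are 7-base matches without the A; TRIM71 has 4 red ticks, IGF2BP1 has 3, and MYCN and DIS3L2 have neither kind.

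The libraries are described here as far as they touch these genes. The control library totalled 25181737 counts, and labelled knockdown replicates 1, 2 and 3 totalled 62904698, 61627449 and 28552070. HYDIN2 itself, the targeted gene, had 12 counts in the former and 150, 112 and 11 in the latter, or 0.50, 2.41, 1.88 and 0.352 CPM (counts scaled to the size of the library), so the target did not check the labels and the libraries are called "labelled knockdown" throughout. The column headers inside the tables name a LacZ control and GKAP_KIF27 sets in place of the labels' names. Genes with longer transcripts tended to lie higher in the labelled knockdown libraries: for 15485 genes, length and log2 difference had a Spearman rho of 0.35, 0.30 and 0.46 in replicates 1, 2 and 3. Genes share libraries and are not replicates, so this is a description. Values after removal of the length and GC trends, fitted as smooth curves over all genes, are given beside the values as scaled. Markers of the line were present: embryonal carcinoma markers summed to 6657 CPM in the control library, beside 6204, 6238 and 6458 CPM in replicates 1, 2 and 3, with ZFP42 near 0 in all 4 (2 to 4 counts). That sum is held up by PODXL, at 1838 CPM and then 2566, 2461 and 3866 CPM. Of the 11 embryonal carcinoma markers past the level filter, 7 were lower in each labelled knockdown library and 2 higher, with a median mean log2 difference of -0.52. DNMT3B was at least 2-fold lower in each, at 795 CPM and then 340, 350 and 349 CPM. The 12 neural markers summed to 193 CPM and then 372, 349 and 323 CPM, with PAX6 and NEUROG1 at 0 in the control library. PAX6 had 15.4, 13.1 and 2.9 CPM in replicates 1, 2 and 3, and NEUROG1 had 4, 2 and 0 counts. The 12 endoderm and mesenchyme markers summed to 122 CPM and then 190, 174 and 170 CPM. Most of that sum was COL1A1, at 76.5 CPM and then 109, 91.8 and 110 CPM. FOXA2, AFP, TTR and DCN were at 0 in the control library and had 10 counts or fewer in each of the others. The part of these markers in the results below was not tested, and in bulk RNA fewer cells of a type and less RNA per cell cannot be told apart.

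None of the 9 genes stood 2-fold or more away from the control library, all on 1 side, in the 3 labelled knockdown libraries. All 9 passed the level filter, a mean of the group means of at least 1 CPM. Of the 15880 genes that passed, 3.65% were at least 2-fold higher in each labelled knockdown library and 2.72% at least 2-fold lower. No member reached 2-fold in any single library either, where 11.3%, 10.4% and 11.3% of genes were higher in replicates 1, 2 and 3 and 7.5%, 6.71% and 15.9% were lower. With a difference of any size, 4 members (HMGA2, IGF2BP1, IGF2BP2 and TRIM71) were higher in each labelled knockdown library, as were 30.1% of all genes, and IGF2BP3 was lower in each, as were 34.2%. At 1.5-fold, TRIM71 was the 1 member higher in each library and 0 were lower, where 10.0% and 9.61% of genes were.

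By edgeR's quasi-likelihood test, whose spread comes from the 3 labelled knockdown libraries alone, 0 members had an adjusted p under 0.05, as did 0 of all 26029 genes in that test (0.0%). At an unadjusted p under 0.05 it held 3 members (TRIM71, IGF2BP1 and IGF2BP3), against 11.6% of all genes. DESeq2 called 0 members by adjusted p, beside 1.72% of 15725 genes. At an unadjusted p under 0.05 it held 1 member (TRIM71), beside 6.48% of the 41692 genes it gave a p. The voom method of limma called 0 members by adjusted p, beside 0.0% of genes, and held 3 at an unadjusted p under 0.05, beside 8.58%. These tests compare 1 library with 3 others and not the conditions.

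**Figure D2:**
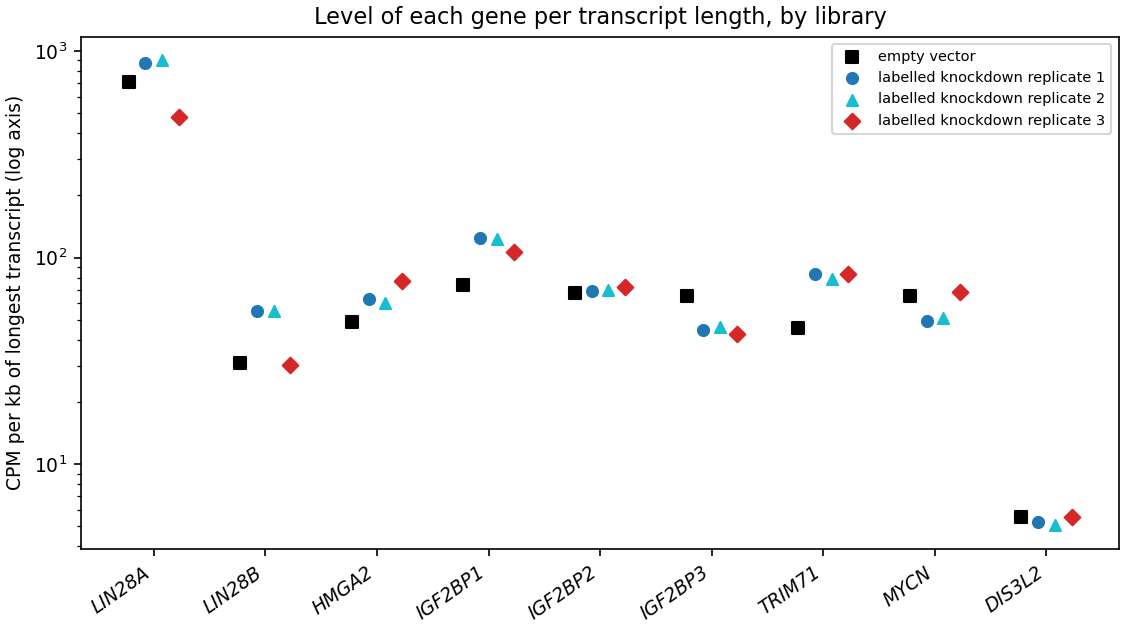
Level of each gene in CPM per kb of its longest annotated transcript (log axis), 1 point per library. LIN28A lies between 477 and 903 in all 4 libraries and DIS3L2 between 5.07 and 5.57; the other 7 genes lie between 30.1 and 125.

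Per transcript length, LIN28A was far above the other members. In the control library it had 710 CPM per kb of its longest transcript. IGF2BP1 followed with 73.5, IGF2BP2 with 67.6, MYCN and IGF2BP3 with 65.5 each, HMGA2 with 48.7, TRIM71 with 45.6, LIN28B with 30.7 and DIS3L2 with 5.54 CPM per kb. The labelled knockdown means per kb were 752 ± 239 for LIN28A, 117.8 ± 10.4 for IGF2BP1, 81.9 ± 2.94 for TRIM71, 70.4 ± 1.77 for IGF2BP2, 66.8 ± 8.86 for HMGA2, 56.2 ± 10.3 for MYCN, 46.8 ± 14.5 for LIN28B, 44.5 ± 1.76 for IGF2BP3 and 5.29 ± 0.257 for DIS3L2 (SD, n = 3). In that order LIN28A, IGF2BP1, TRIM71 and DIS3L2 stood apart from their neighbours in each labelled knockdown library. For the direct neighbours from IGF2BP2 down to IGF2BP3 (IGF2BP2 and HMGA2, HMGA2 and MYCN, MYCN and LIN28B, LIN28B and IGF2BP3), the ranges over the labelled knockdown libraries overlapped. The ends of that run, IGF2BP2 and IGF2BP3, did not overlap.

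**Figure D3:**
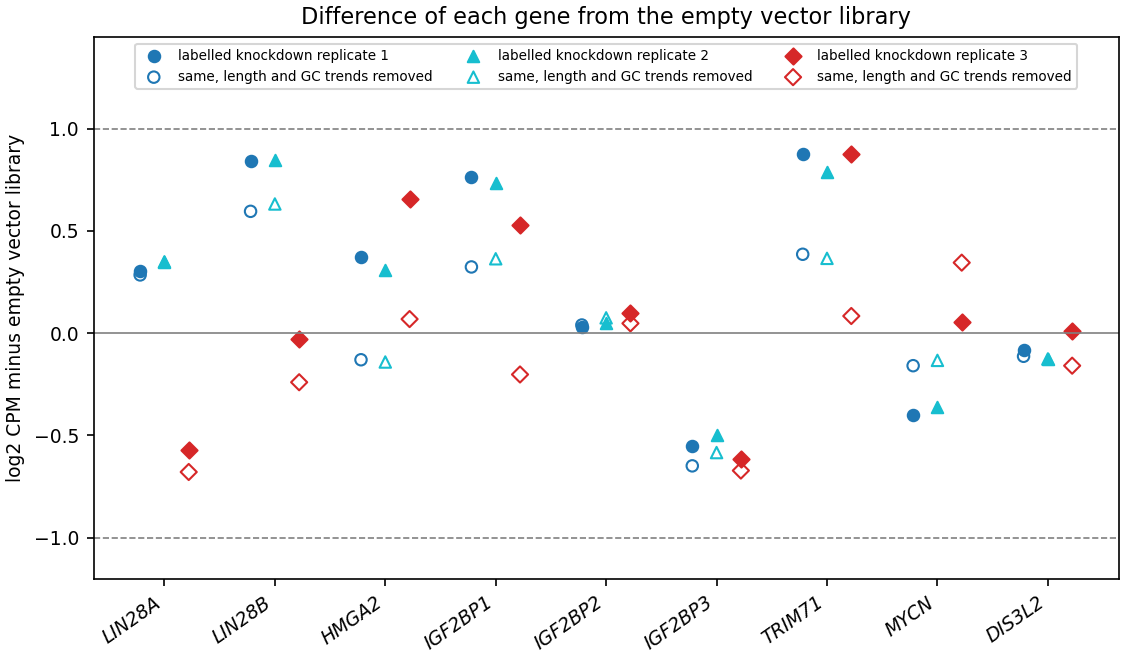
Difference in log2 CPM of each labelled knockdown library from the control library, for each gene. Filled symbols are values as scaled and open symbols are values after removal of the length and GC trends; no symbol reaches the dashed lines at 1 and -1.

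LIN28A (ENSG00000131914.11; GRCh38 chromosome 1, 26410778 to 26429722, plus strand) is the paralog that blocks let-7 maturation mainly in the cytoplasm and is a pluripotency marker. It had 68275 counts in the control library, and its level there was at percentile 99.91 of the genes that passed the filter. Its level was 2844 CPM there, and the labelled knockdown replicates 1, 2 and 3 had 3513, 3620 and 1912 CPM. Replicates 1 and 2 were above the control library and replicate 3 below it, so the groups overlapped. The log2 differences were 0.31, 0.35 and -0.57, with a mean of 0.03 ± 0.52 (SD, n = 3) that was smaller than its spread; edgeR's quasi-likelihood test gave an adjusted p of 0.951. Without replicate 3 the mean was 0.33, and with the trends removed it was -0.02.

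LIN28B (ENSG00000187772.8; chromosome 6, 104936616 to 105083332, plus strand) encodes the paralog that can also act in the nucleus on primary transcripts. It had 4059 counts in the control library. Its level was 169 CPM in that library and 303, 304 and 166 CPM in replicates 1, 2 and 3. Replicates 1 and 2 were higher, by log2 differences of 0.84 and 0.85, and replicate 3 was level with the control library at -0.03, so the groups overlapped. The ratio of replicate 3 to the control library was 0.98, with a 95% counting interval of 0.924 to 1.04. The mean log2 difference was 0.55 ± 0.50 (SD, n = 3), or 0.84 without replicate 3 and 0.33 with the trends removed, and edgeR's quasi-likelihood test gave an adjusted p of 0.604.

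The LIN28 paralogs stood low in the same library. In replicate 3, LIN28A was at 0.544 of its level in replicate 1 (0.537 to 0.551) and 0.528 of that in replicate 2 (0.522 to 0.535). The corresponding ratios for LIN28B were 0.546 (0.523 to 0.571) and 0.545 (0.522 to 0.570). These 2 were the members at least 1.5-fold lower in replicate 3 than in both other labelled knockdown libraries, a difference held by 26.4% of all genes, while 0 members were 1.5-fold higher there, as 14.5% of genes were. The 1.5-fold form of this comparison was chosen after the values were seen. Some embryonal carcinoma markers, also named after their values were seen, stood low in replicate 3 too. Their log2 levels, minus the mean of replicates 1 and 2, were -0.94 for POU5F1, -1.34 for NANOG, -1.15 for TDGF1 and -0.98 for DPPA4. The same measure was -0.90 for LIN28A and -0.87 for LIN28B. It was 1.14 for GDF3 and 0.62 for PODXL, and between -0.21 and 0.22 for the rest of those markers. Replicates 1 and 2 differed little for any member, with ratios between 0.94 and 1.04. The intervals are exact binomial ones on counts divided by 2, since most counts were even, which would follow if the 2 reads of a fragment were counted apart, and they cover counting error only.

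A share within a library needs no scaling between libraries. LIN28B made up 5.61% of the LIN28A and LIN28B counts in the control library (95% Clopper-Pearson interval 5.38% to 5.86%). For replicate 1 the share was 7.95% (7.79% to 8.10%). Replicate 2 had 7.75% (7.59% to 7.90%), while replicate 3 had 7.97% (7.68% to 8.28%). The 3 labelled knockdown shares were close together, at 7.89% ± 0.125 (SD, n = 3), and each interval lay above that of the control library. Per transcript length the share was 4.15% and 5.87% ± 0.0948 (SD, n = 3). The LIN28B share was thus higher also in replicate 3, where both genes were at their lowest among the labelled knockdown libraries. LIN28B has the longer transcript, 5505 against 4008 nt, and the part of the length trend in this shift was not tested within the share.

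**Figure D4:**
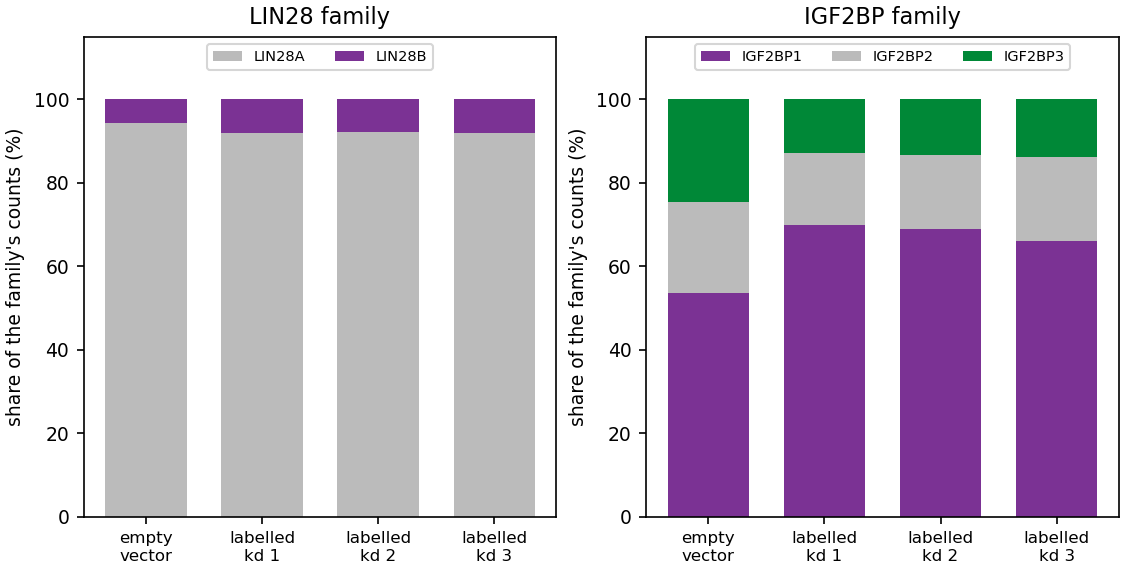
Share of each gene in the summed counts of its family, by library, in percent; "kd 1" to "kd 3" are the labelled knockdown replicates. LIN28B takes 5.61% in the control library and 7.75% to 7.97% in the others, and IGF2BP3 takes 24.5% and then 12.8% to 13.7%.

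DIS3L2 (ENSG00000144535.20; chromosome 2, 231961245 to 232344350, plus strand), the exonuclease that clears uridylated let-7 precursors, had the lowest level of the 9. Its level was 25.9 CPM in the control library and 24.4, 23.7 and 26.0 CPM in replicates 1, 2 and 3. The empty vector value lay inside the range of the others. The counting intervals of all 3 ratios to the control library included 1, the widest running from 0.866 to 1.17 in replicate 3, so with 621 to 1522 counts a difference could not be detected. Its mean log2 difference was -0.07 ± 0.07 (SD, n = 3), and -0.13 with the trends removed.

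Among the let-7 targets, TRIM71 (ENSG00000206557.6; chromosome 3, 32818018 to 32897826, plus strand) had the largest mean difference of the 9 genes. It encodes a ubiquitin ligase and RNA-binding protein of embryonic cells, and its nematode ortholog is a classic let-7 target. It had 9500 counts in the control library. Its level was 396 CPM in that library and 726, 682 and 727 CPM in replicates 1, 2 and 3. All 3 labelled knockdown libraries were higher and the groups did not overlap. The log2 differences were 0.88, 0.79 and 0.88, with a mean of 0.85 ± 0.05 (SD, n = 3), which is under the 2-fold threshold; edgeR's quasi-likelihood test gave an adjusted p of 0.363 and DESeq2 an adjusted p of 0.307. With the length and GC trends removed the differences were 0.39, 0.37 and 0.08, with a mean of 0.28. TRIM71 has the longest transcript of the 9, at 8685 nt.

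HMGA2 (ENSG00000149948.14; chromosome 12, 65824131 to 65966295, plus strand) encodes an architectural chromatin protein of fetal tissues with several known let-7 sites. It had 9463 counts in the control library. Its level was 394 CPM in that library and 511, 488 and 622 CPM in replicates 1, 2 and 3. All 3 were higher, replicate 3 most, and the groups did not overlap. The log2 differences were 0.38, 0.31 and 0.66, with a mean of 0.45 ± 0.19 (SD, n = 3); edgeR's quasi-likelihood test gave an adjusted p of 0.527. With the trends removed the values were -0.13, -0.14 and 0.07, and the mean turned to -0.07. Its direction therefore depended on that step. HMGA2-AS1, which overlaps it on the other strand, amounted to 0.708% of the HMGA2 counts in the control library and to 3.61% in replicate 3, the highest of the 4.

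The 3 IGF2BP genes encode oncofetal RNA-binding proteins that bind IGF2 and other messages and alter their stability and translation. Their differences did not share a direction. IGF2BP1 (ENSG00000159217.10; chromosome 17, 48997412 to 49055650, plus strand) had 608 CPM in the control library and 1034, 1013 and 876 CPM in replicates 1, 2 and 3. It was higher in all 3, with no overlap, by log2 differences of 0.77, 0.74 and 0.53. The mean was 0.68 ± 0.13 (SD, n = 3), and edgeR's quasi-likelihood test gave an adjusted p of 0.396. With the trends removed the differences were 0.32, 0.36 and -0.20, so replicate 3 changed sides and the mean was 0.16.

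IGF2BP2 (ENSG00000073792.16; chromosome 3, 185643739 to 185825056, minus strand) was nearly level. It had 249 CPM in the control library and 254, 258 and 267 CPM in replicates 1, 2 and 3. The mean log2 difference was 0.06 ± 0.04 (SD, n = 3), and edgeR's quasi-likelihood test gave an adjusted p of 0.930. With the trends removed the mean was 0.05. The counting intervals of the ratios to the control library included 1 for replicates 1 and 2 (0.977 to 1.06 and 0.991 to 1.08) and ran from 1.02 to 1.12 for replicate 3.

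IGF2BP3 (ENSG00000136231.14; chromosome 7, 23310209 to 23470467, minus strand) was the 1 member lower in every labelled knockdown library. It had 278 CPM in the control library and 190, 197 and 182 CPM in replicates 1, 2 and 3. The groups did not overlap, and the 3 labelled knockdown values were close together. The log2 differences were -0.55, -0.50 and -0.61, with a mean of -0.56 ± 0.06 (SD, n = 3); edgeR's quasi-likelihood test gave an adjusted p of 0.413. Removal of the trends gave -0.65, -0.58 and -0.67, with a mean of -0.64, so that step did not reduce the difference. MALSU1 overlaps IGF2BP3 on the other strand, with 29.1% of the IGF2BP3 counts in the control library and 19.96%, 20.2% and 21.5% in the others. The strand setting of the counting is not given in the sources used here, so the 2 genes' reads may not be fully separate.

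Within the IGF2BP family the shares therefore differed. IGF2BP1 took 53.6% of the family's counts in the control library (52.7% to 54.4%) and 70.0%, 69.0% and 66.1% in replicates 1, 2 and 3. IGF2BP3 took 24.5% (23.8% to 25.2%) and then 12.8%, 13.4% and 13.7%. IGF2BP2 took 22.0% and then 17.2%, 17.6% and 20.1%. The IGF2BP1 share was higher and the IGF2BP3 share lower in each labelled knockdown library by more than the spread between them, at 68.4% ± 2.00 and 13.3% ± 0.457 (SD, n = 3). Per transcript length, IGF2BP1 held 35.6% and then 50.6% ± 2.34, and IGF2BP3 31.7% and then 19.2% ± 0.395 (SD, n = 3). IGF2BP1 had the largest share of counts in all 4 libraries. Per length the 3 shares were nearly even in the control library, and IGF2BP1 was well ahead in the others. Division by length does not remove the length trend between libraries, and IGF2BP1 has the longest transcript, 8274 nt against 3688 and 4250 nt. With the trends removed, the log2 differences in replicates 1, 2 and 3 were 0.32, 0.36 and -0.20 for IGF2BP1. For IGF2BP2 they were 0.04, 0.075 and 0.05. The part of the length trend in these shares was not tested.

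MYCN (ENSG00000134323.13; chromosome 2, 15940564 to 15947007, plus strand), a transcription factor of the MYC family that is known to raise LIN28B in neuroblastoma, had 171 CPM in the control library. It had 129, 133 and 177 CPM in replicates 1, 2 and 3. Replicates 1 and 2 were lower and replicate 3 was slightly higher, so the groups overlapped. The log2 differences were -0.40, -0.36 and 0.06, with a mean of -0.24 ± 0.25 (SD, n = 3), which is smaller than its spread. Without replicate 3 the mean was -0.38, and with the trends removed it was 0.02. MYCNOS, antisense to MYCN, amounted to between 1.66% and 4.01% of the MYCN counts.

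The members did not share 1 pattern over the libraries. Likeness was measured as the root mean square distance of log2 CPM, centred on each gene's mean, over the 4 libraries. The closest pair was IGF2BP2 and DIS3L2, both nearly level, at 0.06 log2 units, followed by IGF2BP1 and TRIM71 at 0.13. LIN28A and LIN28B lay 0.23 apart, and the most distant pair, LIN28B and MYCN, lay 0.64 apart. Among 11545 genes with a mean of the group means of at least 5 CPM, those closest to LIN28A included AKAP8L (0.0183) and YKT6 (0.0209). Those closest to LIN28B were TBC1D19 (0.0165), ARHGAP19 (0.0189) and CNTLN (0.0191), and those closest to HMGA2 were LCORL (0.0149), SBNO1 (0.0157) and ZNF606 (0.0193). With 4 libraries, many genes can lie this close, and the distances are a description.

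The genes of let-7 itself were examined next. None of the 12 hairpin genes of the family had a count in the control library, where 0 counts allow up to 0.125 CPM. In the labelled knockdown libraries MIRLET7G had 1, 0 and 8 counts and MIR98 had 3, 1 and 3, and the other 10 were at 0 throughout. The tables hold no row for a mature microRNA, so the level of mature let-7 was not measured. Host genes give the transcription units that carry some hairpins. MIR99AHG, the host of let-7c, was at least 2-fold higher in each labelled knockdown library, with 2.50 CPM in the control library and 13.3, 12.2 and 6.75 CPM in replicates 1, 2 and 3. It was the 1 of 6 let-7 genes and hosts past the level filter that passed the rule upward, and 0 passed downward. Of all genes tested, 3.65% passed upward and 2.72% downward. MIRLET7IHG, the host of let-7i, named here after its values were seen, had 4.08 CPM and then 6.18, 7.15 and 25.9 CPM, so its excess lay mostly in replicate 3. The rest of the 6, HUWE1, MIR100HG, WDR82 and MIRLET7A1HG, had mean log2 differences of 0.89, 0.45, 0.04 and -0.34. With the length and GC trends removed these were 0.09, 0.49, -0.06 and 0.05. The same step gave 1.77 for MIR99AHG and 0.78 for MIRLET7IHG. MIRLET7BHG, a host gene below the level filter, had 11 counts in the control library and 10, 4 and 2 in replicates 1, 2 and 3. That is 0.458 CPM and then 0.161, 0.067 and 0.064 CPM. None of these RNAs shows how much let-7 was made.

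Genes that process let-7 or carry out its repression were given by a list of 22, all of which passed the level filter. Like the other lists here, it was chosen with earlier results of these data known. The shares of all genes beside its counts are therefore a description. Of these, 2 were at least 2-fold higher in each labelled knockdown library and 0 lower. At any size, 13 were higher in each and 4 lower in each, beside 30.1% and 34.2% of all genes. The 4 were TARBP2, TRIM25, HNRNPA1 and DDX5. TNRC6B, a scaffold of the silencing complex, had 88.5 CPM in the control library and 219, 214 and 280 CPM in replicates 1, 2 and 3. AGO2, the Argonaute protein that can cleave its target, had 114.5 CPM and then 248, 241 and 305 CPM. For both, the 3 labelled knockdown libraries lay well above the control library, with replicate 3 the highest. The ratio of replicate 3 to replicate 1 was 1.28 (1.23 to 1.33) for TNRC6B and 1.23 (1.19 to 1.28) for AGO2. With the trends removed the mean log2 differences were 0.48 and 0.37. With the rule at 1.5-fold, 6 of the list passed: AGO2, AGO3, AGO4, TNRC6A, TNRC6B and TNRC6C. The share of all genes that passed upward was 3.65% at 2-fold and 10.0% at 1.5-fold. With the trends removed, 0 of the list passed at 2-fold, and without replicate 2, 4 did. The list's median of the mean log2 differences was 0.25, beside -0.02 for all genes tested, and 0.09 with the trends removed, beside -0.02.

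Some genes of the list close to the LIN28 step were named here after their values were seen. TUT4, a terminal uridylyltransferase that LIN28A recruits, had 94.4 CPM in the control library and 124, 131 and 157 CPM in replicates 1, 2 and 3. TUT7, the related enzyme, had 26.4 CPM and then 32.4, 32.1 and 33.2 CPM. Trend-removed mean log2 differences were 0.255 for TUT4 and 0.036 for TUT7. DICER1, which cuts the precursor, had 78.9 CPM and then 104, 97.8 and 157 CPM, with a trend-removed mean log2 difference of -0.09. TRIM25, reported to help LIN28A in uridylation, had 31.3 CPM and then 13.8, 14.98 and 22.9 CPM, with a trend-removed mean of -1.12. For each of these 4 genes all labelled knockdown libraries were on the same side of the control library, and none passed the 2-fold rule.

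A list of 40 other known let-7 targets gave 6 that were at least 2-fold higher in each labelled knockdown library and 0 lower, beside 3.65% and 2.72% of all genes tested. This list too was chosen with earlier results of these data known. PLAGL1, a zinc finger factor that is imprinted, had 8.37 CPM in the control library and 45.0, 44.1 and 65.1 CPM in replicates 1, 2 and 3. THBS1, the matrix glycoprotein thrombospondin-1, had 43.8 CPM and then 272, 222 and 158 CPM. IRS2, an adaptor of the insulin and IGF receptors, had 23.6 CPM and then 61.0, 61.6 and 69.6 CPM. The others were IGF1R, FIGN and FIGNL2, and with the length and GC trends removed 3 of the 6 passed (PLAGL1, THBS1 and FIGNL2). Of the 40, 18 were above the control library in each labelled knockdown library and 13 below it in each, beside 30.1% and 34.2% of all genes. The list's median of the mean log2 differences was 0.24 as scaled, beside -0.02 for all genes tested, and 0.05 with the trends removed. Without replicate 3 it was 0.09, and without replicate 1 or 2 it was 0.17.

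The IGF2 axis, whose messages the IGF2BP proteins bind or whose receptors let-7 targets, was given by a list of 10 genes, 9 of them past the level filter. Of these, 5 were at least 2-fold higher in each labelled knockdown library and 0 lower, beside 3.65% and 2.72% of all genes tested. Since the list was chosen with earlier results of these data known, this count is a description and no measure of an excess. The 5 were IRS1, IRS2, IRS4, IGF1R and IGF2R. IRS1, another receptor adaptor, had 29.5 CPM in the control library and 110, 99.5 and 106 CPM in replicates 1, 2 and 3. IGF2R, which clears IGF2 from the cell surface, had 57.4 CPM and then 142, 133 and 185 CPM. The list's median of the mean log2 differences was 1.29, and 0.61 with the trends removed. After that step 1 of the 5, IRS4, still passed in each library, as did 2.64% of all genes. IRS2, IGF1R and INSR are in this list and in that of other let-7 targets, so the 2 counts are not independent. IGF2 itself, named after its values were seen, had 8.62 CPM and then 18.0, 17.4 and 14.2 CPM.

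Genes with an 8-base let-7 match were then set beside genes without one. The median of the mean log2 differences was 0.17 over the 525 genes with a match and -0.04 over the 12683 without. Without the 7 members that hold a match, the median over the remaining 518 was 0.16. Of the genes with a match, 7.43% were at least 2-fold higher in each labelled knockdown library and 1.91% lower, beside 3.45% and 2.59% of those without. Genes with a match also had longer UTRs, with a median of 3121 nt beside 1123 nt.

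Within classes of UTR length the medians were close. For UTRs under 1000 nt they were -0.27 with a match and -0.26 without. From 1000 to under 2000 nt they were -0.06 and -0.01, from 2000 to under 4000 nt 0.20 and 0.16, and for 4000 nt or more 0.39 and 0.41. In both kinds of gene the median was higher in each longer class, and the match went with no constant direction of the median. The share at least 2-fold higher in each labelled knockdown library was 7.38% with a match and 4.15% without from 2000 to under 4000 nt, and 12.1% and 8.58% at 4000 nt or more. In the shorter classes it was 1.49% and 2.08% under 1000 nt, and 1.94% and 3.23% from 1000 to under 2000 nt. Of the 24 genes with 2 or more matches, 6 were at least 2-fold higher and 0 lower, and all 6 were among the 21 that are not members. Over all 24 genes the median UTR was 4836 nt, and the median difference was 0.30 as scaled and 0.10 with the trends removed. Over the 21 that are not members the median UTR was 4059 nt. Their median difference was 0.20 as scaled and 0.03 with the trends removed. With the length and GC trends removed, the medians over all lengths were -0.06 with a match and -0.06 without. The 3 members with UTRs of 4000 nt or more, LIN28B, IGF2BP1 and TRIM71, had mean log2 differences as scaled of 0.55, 0.68 and 0.85. These lay above the class medians of 0.39 and 0.41, though LIN28B in replicate 3 was at -0.03. From 2000 to under 4000 nt, HMGA2 at 0.45 was above the class medians of 0.20 and 0.16. LIN28A at 0.03 and IGF2BP3 at -0.56 were below them. Yet LIN28A in replicates 1 and 2, at 0.31 and 0.35, was above the class medians of those libraries (0.29 and 0.27 with a match). By the mean, IGF2BP2, MYCN and DIS3L2, with shorter UTRs, were above the medians of their classes. MYCN in replicates 1 and 2, at -0.40 and -0.36, was below the class medians of those libraries (-0.346 and -0.225 with a match). IGF2BP2 in those replicates lay between the medians with and without a match.

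**Figure D5:**
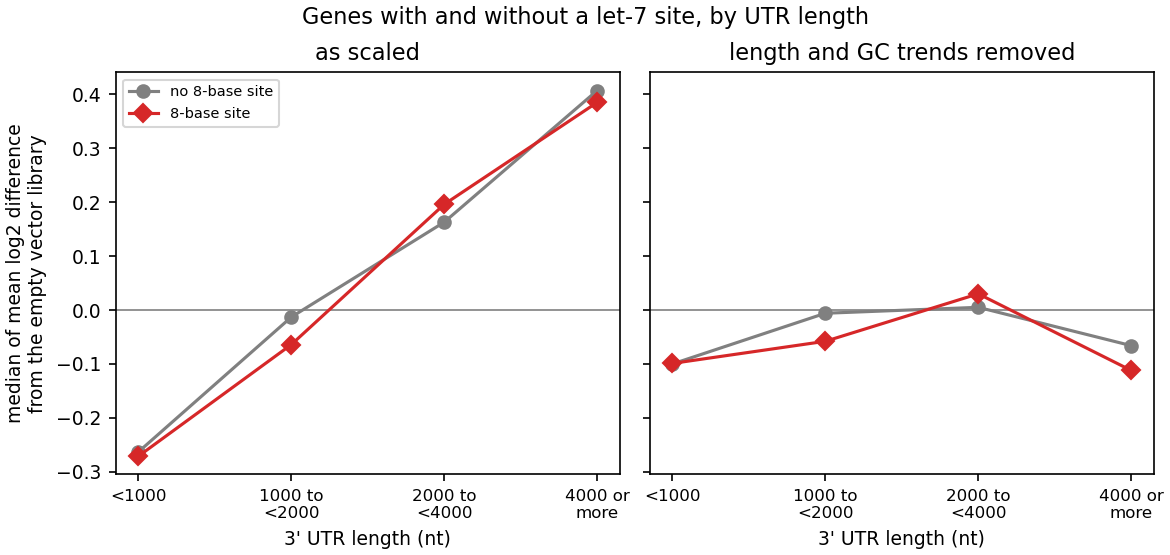
Median over genes of the mean log2 difference from the control library, by 3′ UTR length class, for genes with (red) and without (grey) an 8-base let-7 match. As scaled (left), both lines go from about -0.27 to about 0.4 with UTR length and lie close together; with the length and GC trends removed (right), all medians lie between -0.11 and 0.03.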

How the data were processed

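RNA-seq of 4 NT2 libraries was analysed: 1 empty vector (control) and 3 labelled knockdown, grouped by sample title. Ribosomal RNA was removed and stranded dUTP libraries were made, per the labels' protocols. The submitters' processing notes name STAR 2.7.11b, featureCounts 2.0.6, DESeq2 and hg38 or GRCh38; the annotation release and strand setting are not given in the sources used here. The authors deposited raw counts per gene, 1 table per library.

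Counts were scaled to CPM with TMM factors (edgeR 4.0.16, R 4.3.3; factors from genes kept by filterByExpr: 0.953, 0.990, 0.969 and 1.094), and log2 CPM used a prior count of 2. A gene was called when each labelled knockdown library differed from the control library by 1 or more in log2 CPM, all in 1 direction, with a mean of the group mean CPMs of at least 1. edgeR's quasi-likelihood test, DESeq2 1.42.0 and voom (limma 3.58.1), with Benjamini-Hochberg adjustment over all genes, gave counts of calls and the p-values printed. Library totals of 25181737 to 62904698 counts set the precision; intervals are 95% and cover counting error. The fits were tested on simulated data.

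Coordinates, lengths and UTRs came from GENCODE 29 (GRCh38); 58269 of 62696 identifiers matched. UTRs are those of the APPRIS principal transcript, then the longest; this order was chosen after the sequences were seen. Trends on the longest transcript's length and GC content were removed by lowess (span 0.3). Beside the members, HYDIN2 and, per list, up to 3 genes each way by the largest smallest difference were named, and the 3 genes nearest to each of LIN28A, LIN28B and HMGA2, of which 1 is not reported here. Members and lists were chosen with earlier results of these data known. Alternatives were other scalings, filters, prior counts, a 1.5-fold rule, removal of the trends and leaving out each labelled knockdown library.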

Additional observations from a re-analysis of the deposited data

How the results depend on the processing

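No paired analysis was possible because there is a single empty vector library, which carries no number to match. At 2-fold in each labelled knockdown library, 0 members were higher and 0 lower under every scaling, filter, prior count, trend removal and left-out library tried; at 1.5-fold 1 was higher. Over 90 values (10 alternatives for each member), the mean log2 difference moved by more than its SD in 8 and had the other sign in 6, of LIN28A, HMGA2, MYCN and DIS3L2. Total-count scaling raised the median of all genes by 0.091. It gave medians of 0.33 for other let-7 targets and 0.26 for genes with a let-7 match; removal of the length and GC trends gave 0.047 and -0.058. Leaving out 1 labelled knockdown library gave medians for other let-7 targets of 0.094 (without replicate 3) to 0.173. With the trends removed, 1 gene of the IGF2 list, 3 other targets and 0 processing genes were higher in each library. The last was 6 at 1.5-fold, and 2 to 4 without 1 library (4 without replicate 2). Per transcript length the LIN28B share was 5.87% and the IGF2BP1 share 50.6%. The causes were not tested. The counts over lists under alternatives, the scaling on genes of at least 1 CPM and the UTR of the longest coding transcript were chosen after seeing the data. The single empty vector library limits every comparison, and DIS3L2, at 621 to 1522 counts, has the widest counting intervals.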

Other observations

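Some let-7 targets outside the main rule, picked after their values were seen, differed between the labelled knockdown libraries. PRTG, a cell surface receptor of the early embryo, had 105 CPM in the control library, 85.1 and 82.6 CPM in labelled knockdown replicates 1 and 2, and 798 CPM in replicate 3. MYC had 108 CPM and then 207, 197 and 58.2 CPM. RRM2, the small subunit of ribonucleotide reductase, had 204 CPM and then 63.2, 61.6 and 175 CPM. CDK6, a cell cycle kinase, had 154 CPM and then 597, 559 and 264 CPM, above the control library in all 3. With the length and GC trends removed its log2 differences were 1.30, 1.27 and -0.12, so replicate 3 changed sides. COIL, the coilin protein of Cajal bodies, had 56.6 CPM and then 23.9, 24.0 and 33.4 CPM, below the control library in all 3. It stayed below with the trends removed, at -1.13, -1.15 and -0.51. H19, the imprinted noncoding RNA next to IGF2 that carries let-7 sites, had 15.3 CPM and then 5.88, 7.05 and 22.0 CPM.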
